A study of Saccharomyces cerevisiae with 40 samples.

Results

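Aspartate was compared with urea as the nitrogen source of Saccharomyces cerevisiae, strain Sigma1278b, on 2 of the 40 two-colour arrays of the series. The 2 arrays were taken by their titles, which set aspartate against urea, and 4169 genes had a value on both, out of 5395 genes with a value on at least 1 array. Cells of both groups grew in the same minimum medium with 3% glucose, with aspartate at 10 mM in one culture and urea at 10 mM in the other, for at least 10 generations, and were collected at low density while growing exponentially. The labels name no gene deletion or plasmid. Array 1 had aspartate RNA in Cy5 and urea RNA in Cy3, and array 2 had the dyes the other way round. The remaining 38 arrays set 19 other nitrogen sources against urea. Glutamate, asparagine and the rest of these were given at 10 mM, except tryptophan at 5 mM, and tryptophan is in the mean of the 19 sources used below.

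Aspartate is an acidic amino acid. Yeast takes it up through amino acid permeases, and aspartate aminotransferases move its amino group to 2-oxoglutarate, giving glutamate and oxaloacetate. Glutamate is the main donor of amino groups in the cell, and oxaloacetate enters the citric acid cycle. Aspartate is also spent in the synthesis of asparagine, threonine, methionine, pyrimidines, purines and arginine. Good nitrogen sources hold down genes for the use of poor ones (nitrogen catabolite repression, which works through GATA factors), and external amino acids raise permease genes through the SPS sensor of the plasma membrane. The series' design text describes both controls as not operating on urea.

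Values are log2 ratios of source over urea, so that a positive value means more RNA on aspartate. On array 1, 5153 genes had a value and 16.8% of spots had none. On array 2, 4251 genes had a value and 36.7% of spots had none. Duplicate spots of a gene correlated at 0.974 on array 1 and 0.946 on array 2. Across the shared genes the 2 arrays correlated at 0.707 when both were read as aspartate over urea, genes not being independent replicates, and the median gap between them was 0.183. No label states whether the arrays came from separate cultures, so each p-value measures the spread between arrays, which may be technical. Precision is limited by there being 2 arrays of aspartate. Urea RNA was on every array of the series. Each SE rests on a spread per gene shared by all 40 arrays. It does not show how far the 2 aspartate arrays lay apart, so single array values are given beside it. These single values are not corrected for dye, while the fitted values are. The dye term passed for 2042 of the 4332 genes in the fit. Since the 2 arrays have opposite dyes, a gap between them mixes dye with spread. Remarks below on close or wide array values are about the uncorrected values.

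**Figure D1:**
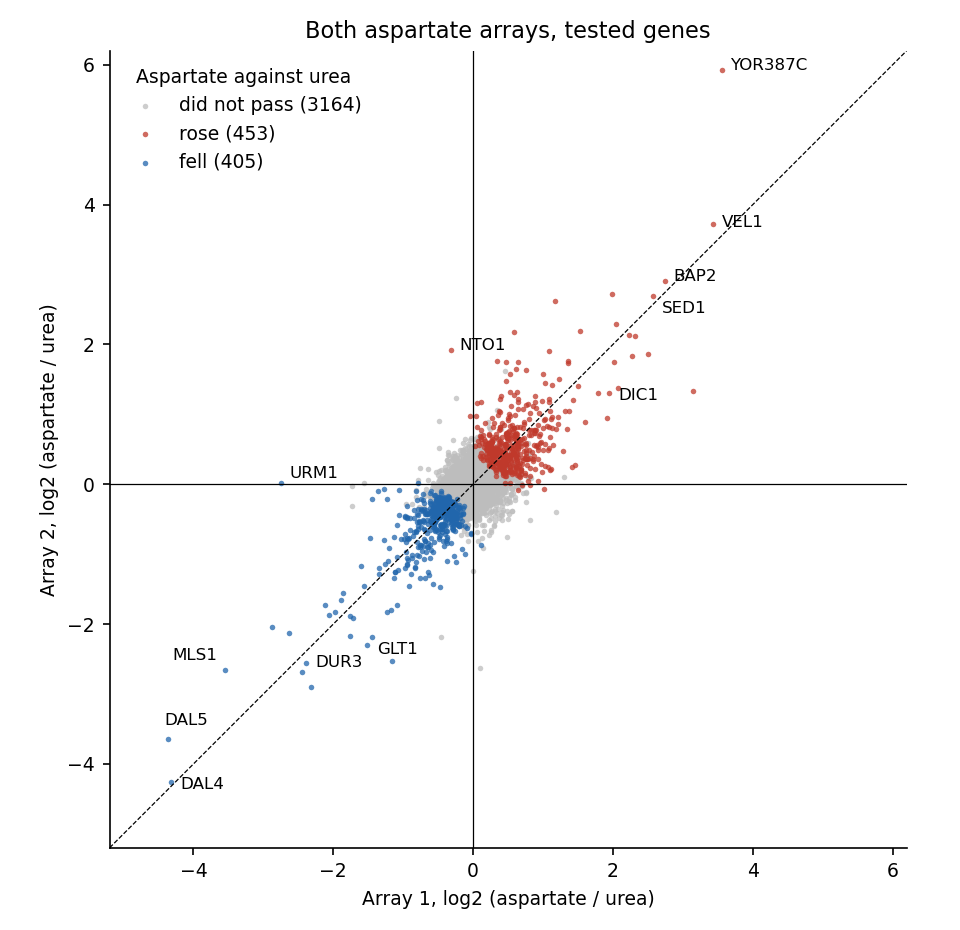
Log2 ratio of aspartate over urea on array 1 (x axis) and array 2 (y axis), 1 point per tested gene. Red marks the 453 genes that rose, blue the 405 that fell and grey those that did not pass, and the dashed line marks equal values. YOR387C lies far above the line and URM1 far to the left of it, while DAL4 and VEL1 lie close to it.

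Of the 4022 genes tested, 858 (21.3%) differed between aspartate and urea at an adjusted p under 0.05 in limma's moderated test. Of these, 453 (11.3%) rose and 405 (10.1%) fell. These 2 shares are the background of each count of a gene group below that rests on both arrays. Fewer genes were called without 1 array, so group counts without 1 array have a lower background and are not to be set against these shares. The other 147 of the 4169 genes had values on fewer than 30 of the 40 arrays and were not tested. Among the called genes the median absolute change was 0.49, and 48 rose and 48 fell by 2-fold or more. The 2 arrays lay on the same side of 0 for 849 of the 858, and for 70.2% of all genes tested. Calling genes on these same 2 arrays favours a shared side, so the 2 shares are not comparable. Leaving out array 1 gave 351 calls and leaving out array 2 gave 233, and 159 genes were called with both arrays and without either one. Either array left alone has a single dye order, so the dye term then came from arrays of other sources.

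Permeases that carry aspartate did not move together. DIP5, the permease of the dicarboxylic amino acids aspartate and glutamate, read -1.09 and -1.72 on the 2 aspartate arrays, both below urea, and fell by 1.41 ± 0.40 (SE, n = 2 arrays, adjusted p = 0.0138). AGP1, a permease of broad specificity that also carries aspartate, read 2.50 and 1.87 and rose by 2.18 ± 0.46 (adjusted p = 0.00135). GAP1, the general amino acid permease, read -0.08 and -0.71, 1 array close to 0 and 1 below it, and its fitted value of -0.39 ± 0.38 did not pass (adjusted p = 0.494) and was 0.14 without array 2. AVT6, which exports aspartate and glutamate from the vacuole, read -0.49 and -0.78 and fell by 0.63 ± 0.14 (adjusted p = 0.00207). AGC1, the mitochondrial carrier of aspartate and glutamate, read 0.29 and 0.26 and did not pass. The DIP5 call ended without array 1 (-1.78, adjusted p = 0.0564) and without array 2 (-1.03), and the calls of AGP1 (2.13, adjusted p = 0.0662) and AVT6 (-0.46) ended without array 2.

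Of 12 tested genes whose enzymes use or make aspartate, 2 rose and 1 fell, which is close to the share over all genes. AAT1, the mitochondrial aspartate aminotransferase, read 0.59 and 0.81, both arrays above urea, and rose by 0.70 ± 0.14 (adjusted p = 0.00062). AAT2, the cytosolic aminotransferase, read 0.17 and 0.41 and did not pass (0.29 ± 0.14, adjusted p = 0.149). ASN2, an asparagine synthetase that aminates aspartate, read 1.31 and 1.05 and rose by 1.18 ± 0.18, while its paralog ASN1 read 0.56 and -0.07, on either side of 0, and did not pass. The mean of the 19 other sources was 1.15 for ASN2, so its value on aspartate is close to theirs. URA2, which joins carbamoyl phosphate to aspartate in pyrimidine synthesis, read -0.64 and -0.42 and fell by 0.53 ± 0.16. The aspartate kinase gene HOM3 (-0.34 and -0.08), the argininosuccinate synthase gene ARG1 (0.18 and 0.31), the aspartyl-tRNA synthetase gene DPS1 (0.01 and 0.32) and the asparaginase gene ASP1 (0.46 and 0.02) did not pass. The URA2 call ended without array 1 (-0.43) and without array 2 (-0.62), and that of AAT1 ended without array 2 (0.63, adjusted p = 0.0644).

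The list with the most falls was that of targets of nitrogen catabolite repression. Of 27 tested members, 18 fell (66.7%, against 10.1% of all genes) and 2 rose, with a median of -0.85 against 0.001 over all genes tested. DAL4, the allantoin permease, read -4.32 and -4.25, the lowest fitted value of any tested gene (-4.29 ± 0.32, adjusted p = 2.64e-09). DAL5, the allantoate permease, read -4.37 and -3.65, both far below urea, and fell by 4.01 ± 0.37. The allantoin degradation genes DAL7 (-2.45 and -2.68) and DAL2 (-2.64 and -2.13) fell on both arrays, as did DAL1 (-0.62 and -1.06) and DAL3 (-0.73 and -0.96), which encode allantoinase and ureidoglycolate lyase. DUR3, the urea transporter gene, read -2.39 and -2.56 and fell by 2.48 ± 0.31. DUR1,2, whose product degrades urea, is not analysed here. GAP1, also a member of the list, did not pass (-0.39). Urea was the reference, so a lower level on aspartate and a higher level on urea cannot be told apart in these ratios. The cause of these falls was not tested.

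PUT4, PUT1 and PUT2, genes of proline use, also fell. PUT4, the proline permease, read -1.76 and -2.17 and fell by 1.96 ± 0.27 (adjusted p = 1.44e-05). PUT1, proline oxidase, read -1.15 and -2.53, a wide gap, and fell by 1.84 ± 0.46. PUT2, which makes glutamate from the product of proline oxidase, read -0.94 and -0.78, fell by 0.86 ± 0.15 and was nearly the same on both arrays. Among ammonium permeases, MEP2 read -0.89 and -1.28 and fell by 1.08 ± 0.25, MEP1 read -0.37 and -0.75 and fell by 0.56 ± 0.14, and MEP3 read 0.14 and 0.10 and did not pass. Other members that fell were DCG1 (-1.97), the nitrilase gene NIT1 (-1.81), the vacuolar carboxypeptidase gene CPS1 (-1.19), the glutathione degradation gene ECM38 (-1.0), the arginine permease gene CAN1 (-0.60) and the vacuolar aminopeptidase gene APE1 (-0.59). The 2 that rose were UGA4, the permease of GABA (0.64 and 0.58, fitted 0.61 ± 0.17), and OPT2, an oligopeptide transporter (0.65 and 1.23, fitted 0.94 ± 0.16). CAR1, arginase, read 0.05 and -0.14 and the GABA transaminase gene UGA1 read -0.15 and -0.46, and neither passed.

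Without array 1, 16 of the 27 fell and 1 rose, since the calls of APE1 (-0.53), MEP1 (-0.55) and UGA4 (0.52) ended. Without array 2, 12 fell and none rose. The calls that ended then were those of PUT1 (-1.27, adjusted p = 0.311), MEP2 (-0.80, adjusted p = 0.229), DAL1 (-0.81, adjusted p = 0.0534), DAL3 (-0.72), MEP1 (-0.58), CAN1 (-0.48), UGA4 (0.70) and OPT2 (0.65).

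Of the 5 GATA factor genes of this control, 3 fell (60%, against 10.1% of all genes) and none rose. DAL80, a repressor, read -1.73 and -1.91, both far below urea, and fell by 1.82 ± 0.27 (adjusted p = 4.02e-05). With dye in the fit, DAL80 was at -2.27 without array 1 and at -1.36 without array 2. GAT1, an activator, read -0.24 and -1.11 and fell by 0.67 ± 0.14, and GZF3, a repressor, read -0.49 and -0.36 and fell by 0.42 ± 0.10. The activator gene GLN3 (-0.25 and 0.06) and URE2, whose product holds Gln3 in the cytoplasm (0.14 and 0.15), did not pass. The GZF3 call ended without array 1 (-0.34) and that of GAT1 without array 2 (-0.48).

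Of 4 tested genes of ammonium assimilation and glutamate dehydrogenases, 3 fell (75%, against 10.1% of all genes) and none rose. GLT1, glutamate synthase, read -1.51 and -2.30 and fell by 1.91 ± 0.17 (adjusted p = 2.39e-08). GDH1, the NADP-dependent glutamate dehydrogenase that fixes ammonium, read -1.48 and -0.77 and fell by 1.12 ± 0.15. GLN1, glutamine synthetase, read -0.63 and -1.29 and fell by 0.96 ± 0.20. The arrays of all 3 genes were below 0, and their order differed, with array 1 lower for GDH1 and array 2 lower for GLT1 and GLN1. GDH2, which releases ammonium from glutamate, read 0.26 and 0.35 and did not pass (0.31 ± 0.22). GDH3, a paralog of GDH1, read -0.20 and -0.27 and was not tested. The GLN1 call ended without array 2 (-0.57, adjusted p = 0.265).

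Genes that supply 2-oxoglutarate, the acceptor of amino groups, did not share a direction: 1 of 7 rose (14.3%, against 11.3% of all genes) and 2 fell (28.6%, against 10.1%). PYC1, pyruvate carboxylase, which makes oxaloacetate, read -1.35 and -1.28 and fell by 1.32 ± 0.18 (adjusted p = 9.59e-06). CIT1, mitochondrial citrate synthase, read -0.91 and -0.48 and fell by 0.69 ± 0.16. DLD3, which encodes a cytosolic D-lactate dehydrogenase, read 0.72 and 0.67, both above urea, and rose by 0.69 ± 0.12. CIT2, peroxisomal citrate synthase, read -0.25 and -0.19 and did not pass. The isocitrate dehydrogenase genes IDH1 (0.29 and 0.25) and IDH2 (-0.03 and 0.24) and the aconitase gene ACO1 (0.21 and 0.46) did not pass. The CIT1 call ended without array 1 (-0.55, adjusted p = 0.162).

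Of 11 genes of the lower citric acid cycle, SDH3, a membrane subunit of succinate dehydrogenase, was the 1 that passed, a share of 9.09% that is close to that of falls over all genes. It read -0.81 and -0.54 and fell by 0.67 ± 0.13 (adjusted p = 0.000644). Of 6 glyoxylate and gluconeogenesis genes tested, MLS1 and CRC1 fell (33.3%, against 10.1% of all genes). MLS1, malate synthase, read -3.55 and -2.66 and fell by 3.11 ± 0.34, the third lowest value on aspartate. Whether its signal mixes with that of other genes that fell, such as DAL7 (-2.57), was not tested. CRC1, the mitochondrial carnitine carrier, read -0.38 and -1.09 and fell by 0.74 ± 0.25, a call that ended without array 1 (-1.01, adjusted p = 0.0884) and without array 2 (-0.46). Of the 18 genes listed, 11, among them ICL1 and PCK1, did not have a value on both arrays, and IDP2 was on too few arrays to be tested.

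Among 7 mitochondrial carriers of dicarboxylates and related acids, DIC1 stood apart. DIC1 exchanges malate or succinate for phosphate across the inner membrane. It read 1.94 and 1.30, both high, and rose by 1.62 ± 0.16 (adjusted p = 2.7e-07). YHM2, a carrier of citrate and 2-oxoglutarate, read -0.37 and -0.85 and fell by 0.61 ± 0.14, and ODC1, a carrier of 2-oxodicarboxylates, read -0.03 and -0.71 and fell by 0.37 ± 0.11. The carriers ODC2 (-0.14), CTP1 (-0.15) and OAC1 (0.17) did not pass. The ODC1 call ended without array 1 (-0.46) and without array 2 (-0.27), and that of YHM2 without array 2 (-0.47).

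Permease genes under the SPS sensor were mostly higher. Of 5 tested, 4 rose (80%, against 11.3% of all genes) and DIP5 fell, with a median of 1.21. BAP2, a permease of branched-chain amino acids, read 2.75 and 2.91 and rose by 2.83 ± 0.48 (adjusted p = 0.000212). GNP1, a glutamine permease, read 1.36 and 1.05 and rose by 1.21 ± 0.21. TAT1, a permease of tyrosine and valine, read 0.52 and 0.97 and rose by 0.75 ± 0.25, a call that ended without array 2 (0.28, adjusted p = 0.721). AGP1 is described above, and its call also ended without array 2 (2.13). BAP3, TAT2 and PTR2 did not have a value on both arrays and were not tested. None of the tested genes of the sensor pathway itself, STP1 (0.16 and -0.06) and SSY5 (0.10 and 0.30), passed.

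**Figure D2:**
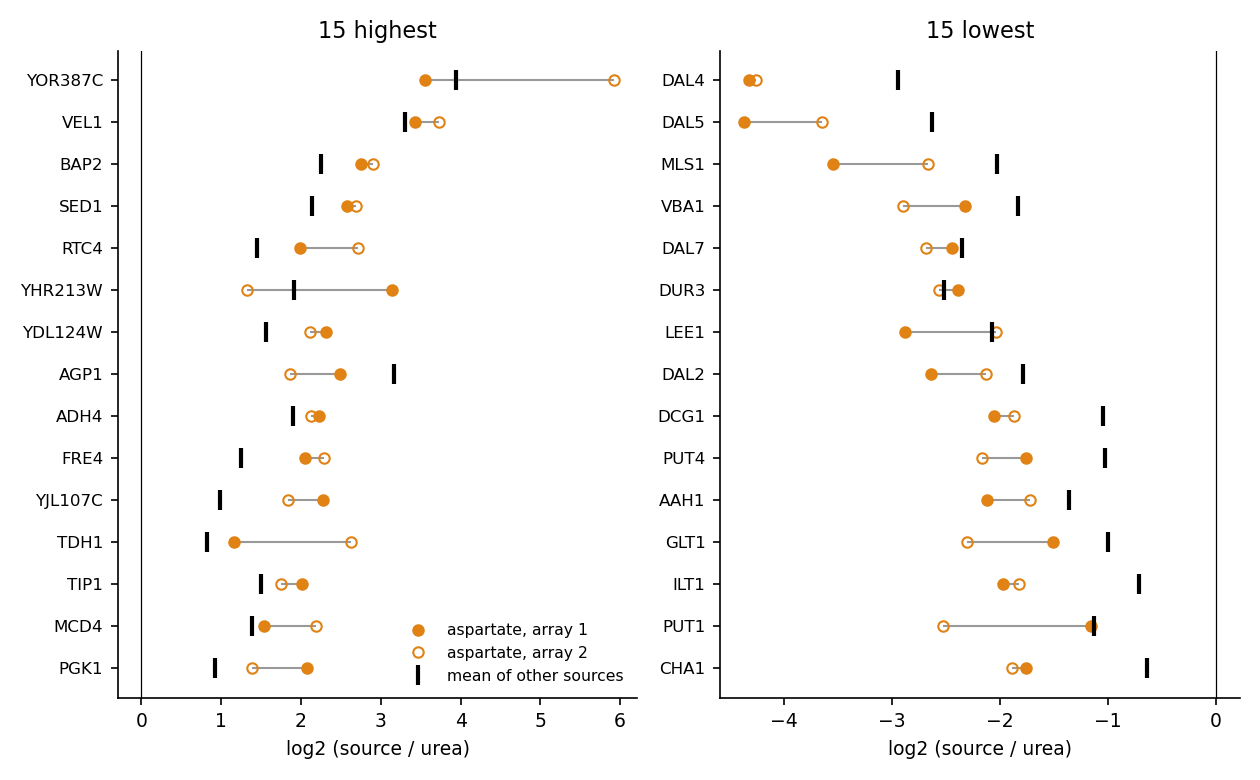
The 15 highest (left panel) and 15 lowest (right panel) fitted values on aspartate, as log2 ratio to urea on the x axis. Filled and open circles are arrays 1 and 2 of aspartate, and the black bar is the mean of the other sources. For all 30 genes the bar lies on the same side of 0, but all ratios share urea, so no agreement between sources is drawn from it.

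The 15 highest values on aspartate belonged to genes whose mean over the other sources was also above 0. All of these ratios share urea, so a common side of 0 is not separate agreement between sources. YOR387C, of unknown function, read 3.55 and 5.92, a wide gap, and rose by 4.74 ± 0.71, with a mean of 3.95 over the other sources. With dye in the fit, YOR387C was at 5.10 without array 1 and at 4.38 without array 2. VEL1, a gene of closely similar sequence, read 3.43 and 3.73 and rose by 3.58 ± 0.49 (3.30 over the others). SED1, an abundant cell wall protein, read 2.57 and 2.69 and rose by 2.63 ± 0.29 (2.14 over the others). TIP1, another cell wall protein, read 2.02 and 1.75, and MCD4, which adds ethanolamine phosphate to membrane anchors, read 1.53 and 2.19. FRE4, a ferric reductase, read 2.05 and 2.29, and ADH4, an alcohol dehydrogenase, read 2.22 and 2.13. RTC4 (1.99 and 2.72), YDL124W, a reductase gene (2.32 and 2.12), YHR213W (3.14 and 1.33) and YJL107C, of unknown function (2.28 and 1.84), complete the named genes outside the groups below. VEL1 and YOR387C, and YHR213W with the flocculin genes, resemble other genes, and probes were not tested for cross-hybridisation.

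Low values outside the groups above included VBA1, a vacuolar transporter of basic amino acids (-2.32 and -2.90), LEE1, a zinc finger gene of unknown function (-2.88 and -2.04), and AAH1, adenine deaminase (-2.12 and -1.72). CHA1, the catabolic serine and threonine deaminase, read -1.76 and -1.89, close to each other, and fell by 1.82 ± 0.32. ILT1, which encodes a plasma membrane protein, read -1.98 and -1.82 and fell by 1.90 ± 0.17. Of the 30 genes named as highest or lowest, 26 were called without either array. The calls that ended were those of YHR213W without array 1 (1.49, adjusted p = 0.160) and of AGP1 (2.13), TDH1 (1.26, adjusted p = 0.166) and PUT1 (-1.27) without array 2.

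Genes of glycolysis and fermentation were higher on aspartate. Of 19 tested, 10 rose (52.6%, against 11.3% of all genes) and none fell, with a median of 0.67. PGK1, phosphoglycerate kinase, read 2.07 and 1.38 and rose by 1.73 ± 0.22 (adjusted p = 5.55e-06). TDH1, a glyceraldehyde phosphate dehydrogenase, read 1.16 and 2.63 and rose by 1.89 ± 0.37, though without array 2 its call ended (1.26). ENO1, enolase, read 1.36 and 1.76 and rose by 1.56 ± 0.31. CDC19, pyruvate kinase, read 1.02 and 1.45, both well above urea, and rose by 1.24 ± 0.14 (adjusted p = 7.89e-07). TPI1, triose phosphate isomerase, and PGI1, phosphoglucose isomerase, also rose (0.86 and 0.50). The strongly expressed TDH3 (0.23 and 0.11) and ENO2 (-0.12 and 0.32) did not pass, and neither did ADH1 (-0.01 and -1.24). TDH1, TDH2 and TDH3, and ENO1 and ENO2, are copies of closely similar sequence whose signals may be mixed. Without array 1, 7 of the 19 rose, and without array 2, 6 rose. Over the 18 members fitted on every source, the median was 0.60 on aspartate and -0.02 (methionine) to 0.37 (ammonium) on the 19 others. By gene, 1 of the 19 (CDC19) was called higher than the mean of the other sources. None of 18 tested against glutamate was called higher on aspartate, and PGK1 was at 1.75 on proline. HXT3, a low-affinity glucose transporter, went the other way, with -1.09 and -1.05 on the 2 arrays (fall of 1.07 ± 0.18).

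The list with the largest share of rises was that of folding and translocation in the endoplasmic reticulum. Of 17 tested, 14 rose (82.4%, against 11.3% of all genes) and none fell, with a median of 0.79. KAR2, the lumenal Hsp70 chaperone, read 1.09 and 1.91 and rose by 1.5 ± 0.20. ERO1, the oxidase that drives disulfide formation, read 1.51 and 1.40, PDI1, protein disulfide isomerase, read 1.42 and 1.20, and HAC1, the transcription factor of the unfolded protein response, read 1.92 and 0.95. Both arrays of each of these 4 genes were above urea. IRE1 (-0.17 and 0.10), CNE1 (0.40 and -0.01) and MPD2 (0.15 and 0.34) did not pass. Without array 1, 11 of the 17 rose, and without array 2, 12 rose. Over the 15 members fitted on every source the median was 0.79 on aspartate, and 4 of the 19 other sources lay above it, up to 0.88 on glutamine.

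**Figure D3:**
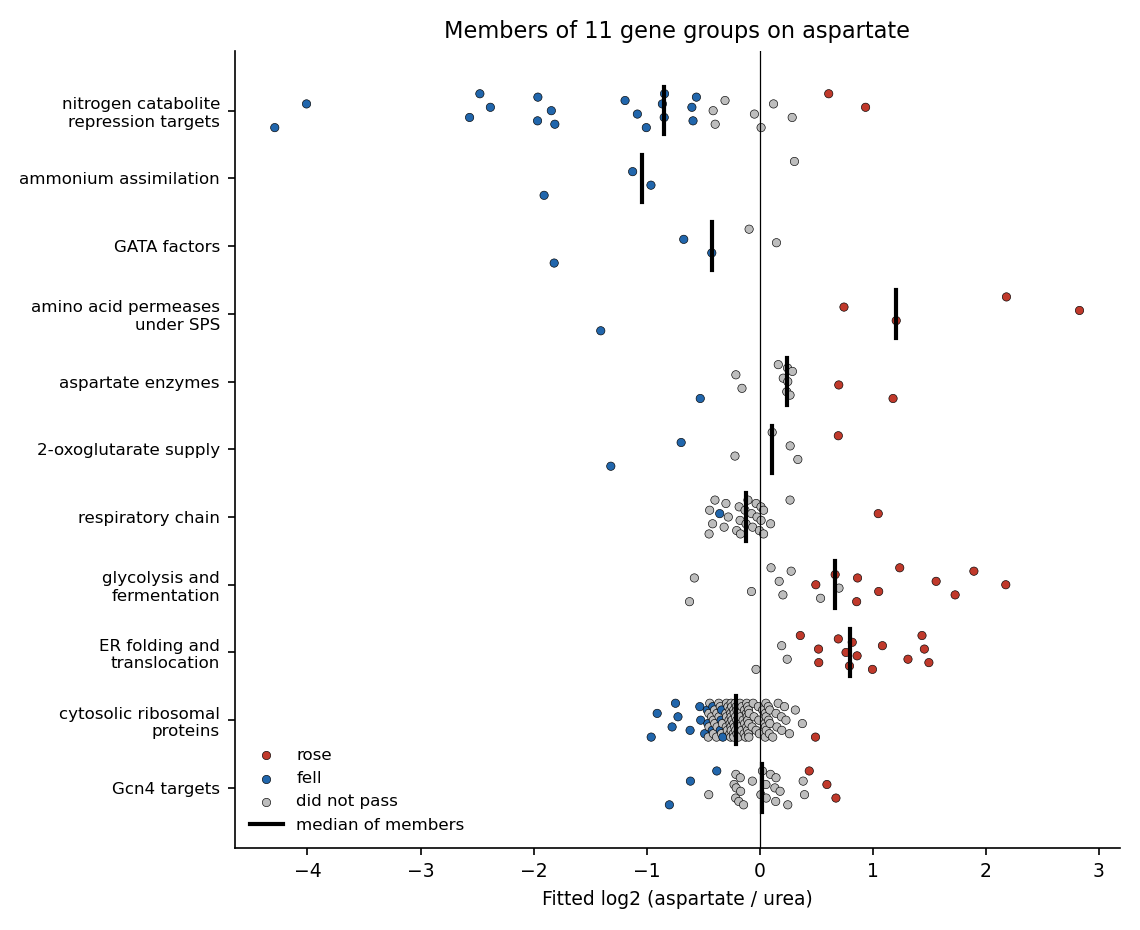
Fitted log2 ratio of aspartate over urea (x axis) for each tested member of 11 gene groups (rows). Red members rose, blue fell and grey did not pass, and the black bar is the median of the group. The row of Gcn4 targets also holds GCN4. Catabolite repression targets lie mostly to the left of 0 (median -0.85), and glycolysis (0.67) and endoplasmic reticulum genes (0.79) mostly to the right.

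Among amino acid synthesis genes, calls made up a larger share of the lysine list than of the Gcn4 list. Of 28 genes in the Gcn4 list, 3 rose and 3 fell (10.7% each, close to the shares over all genes). The list holds targets of Gcn4, the activator of amino acid synthesis genes, and also GCN4, which is counted among the falls. GCN4 itself read -0.86 and -0.74 and fell by 0.80 ± 0.16 (adjusted p = 0.000887), which without array 2 was -0.78 (adjusted p = 0.0546). ARG8, an ornithine synthesis gene, read 0.61 and 0.74 and rose by 0.67 ± 0.13 (0.57 without array 2, adjusted p = 0.0692). Of 8 lysine genes, 4 fell (50%, against 10.1% of all genes) and 1 rose (12.5%, against 11.3%). LYS14, the activator of lysine synthesis genes, read -0.79 and -0.90 and fell by 0.84 ± 0.15. LYS21, homocitrate synthase, fell by 0.61 ± 0.15 and lost its call without array 1 (-0.47), LYS5 fell by 0.47 ± 0.08 and lost it without array 2 (-0.42, adjusted p = 0.0582), and LYS12, homoisocitrate dehydrogenase, rose by 0.44 ± 0.12 and lost it without array 1 (0.41) and array 2 (0.47). Without array 1, 1 of the Gcn4 genes rose and 1 fell, and without array 2 none rose and 1 fell, while 2 lysine genes fell without array 1 and 2 without array 2. None of the 9 genes that lead from aspartate to threonine, isoleucine and methionine passed (range -0.30 to 0.22), and neither did the 3 genes whose products release fumarate, ARG4 (-0.45), ADE13 (0.22) and FUM1 (0.14).

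Over all genes, 11.3% rose and 10.1% fell. Of 15 purine genes, 3 rose (20%) and 2 fell (13.3%), and of 6 pyrimidine genes 1 rose (16.7%) and 2 fell (33.3%). AAH1 had the lowest value (-1.92 ± 0.16), and IMD4, an IMP dehydrogenase gene, read 0.58 and 1.28 and rose by 0.93 ± 0.17 (0.51 without array 2, adjusted p = 0.195). ADE16, the last enzyme of IMP synthesis, read 0.69 and 0.55 and rose by 0.62 ± 0.13, though its call ended without array 1 (0.62, adjusted p = 0.0504) and without array 2 (0.63, adjusted p = 0.0621). URA3, orotidine phosphate decarboxylase, read -0.72 and -0.14 and fell by 0.43 ± 0.11, which was -0.31 without array 1. Of 22 sulfur genes, 2 rose (9.09%) and 4 fell (18.2%). SUL1, a sulfate permease, read -0.68 and -0.81 and fell by 0.75 ± 0.13, while MUP1, the methionine permease, read 1.09 and 1.18 and rose by 1.14 ± 0.22 (1.00 without array 1, adjusted p = 0.0553). Without array 1, 1 purine gene rose and 1 fell and 2 sulfur genes fell, and without array 2, 1 purine and 2 sulfur genes fell and 1 sulfur gene rose. No pyrimidine gene was called without array 1, and 1 fell without array 2. Counts in other lists were small, with 2 of 9 branched-chain synthesis genes (22.2%), 2 of 14 iron genes (14.3%) and 2 of 9 cell wall genes (22.2%) that rose and none that fell, and with 2 rises and 2 falls among 13 phospholipid genes (15.4% each) and among 6 glycine and one-carbon genes (33.3% each). No branched-chain, glycine or one-carbon gene was called without array 1 or without array 2. Without array 1, 1 iron gene, 1 cell wall gene and 1 phospholipid gene rose and 1 phospholipid gene fell, and without array 2, 1 cell wall gene rose and no iron or phospholipid gene was called.

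Of 122 cytosolic ribosomal protein genes tested, 17 fell (13.9%, against 10.1% of all genes) and 1 rose, with a median of -0.21. Without array 1, 4 fell, and without array 2, 3 fell. RPS9A read -0.87 and -1.05 and RPL9B read -1.03 and -0.79. Many of these genes are near-identical pairs whose signals may be mixed. Of 35 mitochondrial ribosomal protein genes, 6 rose (17.1%, against 11.3% of all genes) and none fell (2 rose without array 1, none without array 2), with the highest value for MRPL7 (0.57 ± 0.13, 0.46 without array 2). Of 38 ribosome biogenesis genes, 4 fell (10.5%) and none rose, and none was called without array 1 or without array 2. Of 27 genes of the respiratory chain and ATP synthase, NDE1, a mitochondrial NADH dehydrogenase, rose (0.52 and 1.57, fitted 1.05 ± 0.24, ending without array 2 at 0.85) and QCR2, a subunit of complex III, fell (-0.55 and -0.15). QCR2 was named after its values were seen, and no gene of the list fell without array 1 or without array 2.

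Of 21 ergosterol genes, 7 fell (33.3%, against 10.1% of all genes) and 2 rose (9.52%, against 11.3%). ERG1, squalene epoxidase, read -0.49 and -0.75 and fell by 0.62 ± 0.13 (-0.38 without array 2), and ERG11, lanosterol demethylase, read -0.55 on both arrays and fell by 0.55 ± 0.13 (-0.56 without array 1, adjusted p = 0.0679, and -0.54 without array 2). ERG28 read -1.23 and -0.22 and fell by 0.72 ± 0.17, which was -0.51 without array 1 (adjusted p = 0.198). Without array 1 or without array 2, 1 of the 21 fell. Of 7 vacuolar protease genes, CPS1, APE1 and DAP2, a dipeptidyl aminopeptidase (-0.43 ± 0.11), fell (42.9%) and none rose, the calls of APE1 (-0.53) and DAP2 (-0.30) ending without array 1. Of 11 autophagy genes, 2 fell (18.2%). ATG32, the mitophagy receptor, read -0.95 and -1.16 and fell by 1.06 ± 0.13. ATG1, an autophagy kinase, fell by 0.40 ± 0.13 and lost its call without array 1 (-0.39) and without array 2 (-0.42). Of 14 stress and reserve carbohydrate genes, 3 rose (21.4%, against 11.3% of all genes). CTT1, catalase, rose (0.58 and 2.18, fitted 1.38 ± 0.44), as did GSY1, glycogen synthase, and SSA3, a chaperone. The CTT1 call ended without array 1 (1.70, adjusted p = 0.108) and without array 2 (1.05), and those of GSY1 (0.51) and SSA3 (0.17) without array 2. VTC3, a polyphosphate synthesis subunit, read 1.12 and 1.43 and rose by 1.27 ± 0.18, 1 of 10 phosphate genes of which 2 rose (20%) and 1 fell (10%).

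To find where aspartate departed from sources other than urea, its term was set against the mean of the 19 other sources. Of 4022 genes, 22 (0.547%) differed, 8 higher (0.199%) and 14 lower (0.348%) on aspartate. DIC1 differed most among the higher genes, at 1.62 on aspartate against a mean of 0.17 (SD 0.57 over the 19 others), a difference of 1.45 ± 0.17 (adjusted p = 3.43e-05). All 19 other sources lay below aspartate, asparagine being the nearest at 1.31, then GABA at 0.84 and methionine at 0.81, and citrulline the lowest at -0.84. DIC1 was the 1 gene of the 22 that was also called without each aspartate array in turn.

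Of the other 7 genes higher on aspartate, CDC19 was at 1.24 on aspartate against a mean of 0.60 (difference 0.64 ± 0.15), with valine next at 1.14. GFA1, the first enzyme of chitin precursor synthesis, read 1.02 and 0.94 on the aspartate arrays against a mean of 0.51 (difference 0.47 ± 0.11), and CHS1, chitin synthase I, read 0.58 and 0.69 against 0.17 (difference 0.47 ± 0.11). Other chitin genes, named after their values were seen, were not called against the mean of the other sources. Over urea, PCM1 rose (0.585), GNA1 fell (-0.38), and QRI1, CHS2 and CHS3 did not pass. CMK2, a calmodulin-dependent kinase, read 0.67 and 0.63 against -0.12 (difference 0.76 ± 0.16). HXT2, a glucose transporter of high affinity, read -0.42 and -0.10 against a mean of -1.07 (difference 0.81 ± 0.18), and its ratio to urea itself did not pass (adjusted p = 0.321). Asparagine (-0.27) and ammonium (-0.31) lay close to its fitted value of -0.26. YJL107C was at 2.06 against 0.98 (difference 1.08 ± 0.19). HUL5, a ubiquitin ligase gene, read 0.04 and 0.98, so that its difference of 0.55 ± 0.13 rests on array 2. For each of the 7 genes called higher the fitted value on aspartate was the highest of the sources fitted. For GFA1, at 0.98, arginine was next at 0.88. The 7 genes were picked as higher than the mean of the others, and this choice favours a top place. Over 3713 tested genes fitted on all 20 sources, aspartate was highest for 182, against a median of 173 per source.

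The 14 genes lower on aspartate than the mean of the other sources were not all at the low end of the 20 sources. Over 3713 tested genes fitted on all 20 sources, aspartate was lowest for 67, against a median of 148.5 per source. GLT1 was at -1.91 against a mean of -1.0 (difference -0.91 ± 0.17, adjusted p = 0.0127), below all 19 others, asparagine being the nearest at -1.73. ILT1 was at -1.90 against -0.71 (difference -1.19 ± 0.17, adjusted p = 0.000522), with 1 other source lower. ALT1, the mitochondrial alanine aminotransferase, read -1.07 and -1.23 against a mean of 0.03 (difference -1.17 ± 0.24), with 4 other sources lower (ammonium, asparagine, glutamate and glutamine). RTC2, a vacuolar membrane protein gene, read -1.17 and -1.80 against -0.50, with 3 other sources lower. PUT2 was at -0.86 against -0.17, and UGA2, succinate semialdehyde dehydrogenase of GABA use, read -0.30 and -0.63 against a mean of 0.19, each with 3 other sources lower. SDH3 was at -0.67 against -0.02 (difference -0.66 ± 0.14), below all 19 others, asparagine again being the nearest at -0.66. POR1, the mitochondrial porin, read -0.25 and -0.48 against 0.27, with 2 other sources lower. AMD2, a putative amidase (-0.96 against -0.20), and SDL1, an L-serine dehydratase gene (-1.24 against -0.59), were lower than the mean, with 6 other sources lower still for AMD2 and 7 for SDL1, asparagine lowest for both. PXA2, a peroxisomal fatty acid importer, was at -0.10 against 0.66, with 1 other source lower. CAR1 was at -0.05 against a mean of 0.96 (adjusted p = 0.0496), the other sources ranging from -0.92 to 5.47 and 7 of them being lower. YMC1, a mitochondrial carrier (difference -0.55, with 2 other sources lower), and UPS2, a mitochondrial lipid transfer protein (difference -0.46, below all 19 others), were named after their values were seen.

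These calls, apart from that of DIC1, depended on single arrays. Without array 2, DIC1 alone remained, and the adjusted p of GLT1 was 0.875 at a difference of -0.69 and that of CDC19 was 0.999 at 0.39, while HUL5 was at 0.14. Without array 1, CDC19, DIC1, GLT1, HUL5 (0.97) and ILT1 remained of the 22, and the differences of the other 15 named genes ranged from -1.11 (ALT1) to 1.14 (YJL107C) with adjusted p from 0.0824 to 0.399. Without array 2 the 19 named genes that lost their call ranged from -1.26 (ILT1, adjusted p = 0.0606) to 1.00 (YJL107C).

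**Figure D4:**
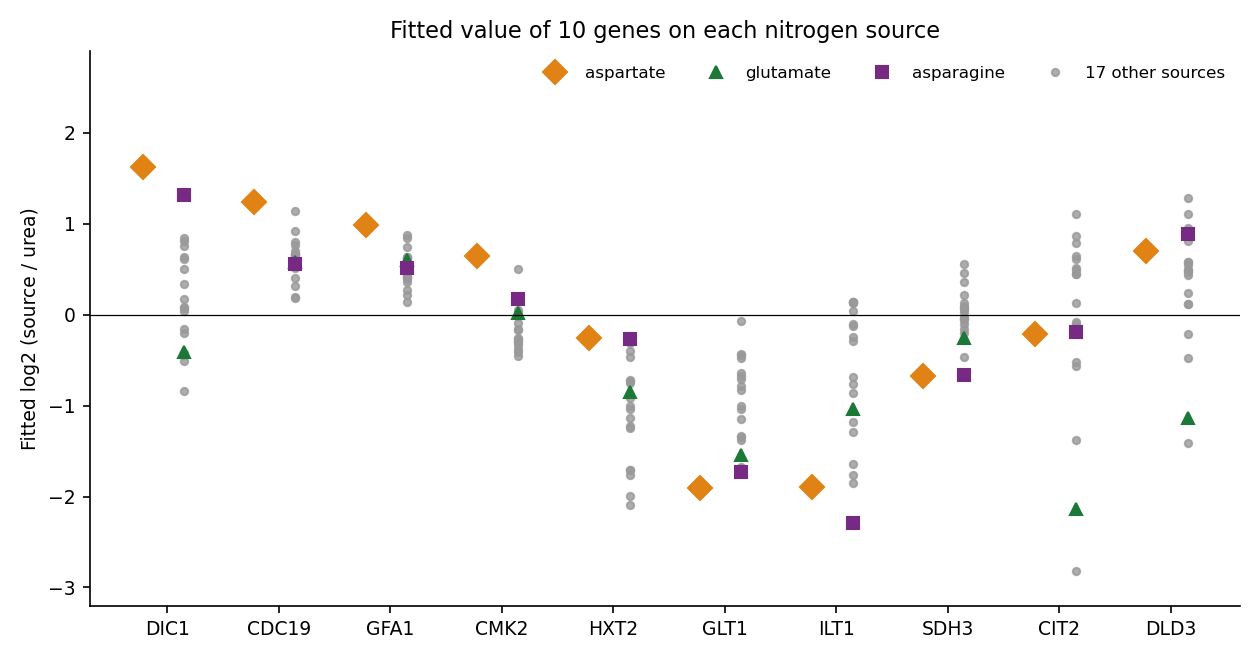
Fitted log2 ratio of source over urea (y axis) for 10 genes (x axis) on each of 20 nitrogen sources. The orange diamond is aspartate, the green triangle glutamate, the purple square asparagine and grey dots the other 17 sources. For DIC1 aspartate (1.62) lies above asparagine (1.31) and glutamate (-0.41) lies among the low sources, and for GLT1 and SDH3 aspartate is the lowest point.

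Glutamate, the other acidic amino acid, has a side chain longer than that of aspartate by a single methylene group and was given at the same 10 mM. Of 3424 genes with values on all 4 arrays of this comparison, 3 (0.0876%) differed at an adjusted p under 0.05, all higher on aspartate, and none was lower. At an unadjusted p under 0.05 there were 325 of the 3424 genes, 139 of them lower on aspartate. Many genes pass this level without a true difference, so these are not calls. DIC1 read 1.94 and 1.30 on the aspartate arrays, against -0.44 and -0.37 on the glutamate arrays, a difference of 2.03 (95% interval 1.56 to 2.50, adjusted p = 1.1e-05). CIT2 read -0.25 and -0.19 on aspartate, against -2.52 and -1.77 on glutamate, a difference of 1.92 (1.32 to 2.53, adjusted p = 0.000784). DLD3 read 0.72 and 0.67 on aspartate, against -1.24 and -1.04 on glutamate, a difference of 1.83 (1.48 to 2.18, adjusted p = 2.86e-07). These 3 genes were called by this difference, so the distance between their arrays is no separate support for it. The CIT2 call ended without glutamate array 1 (1.49, adjusted p = 0.107), and the other 2 calls held without each of the 4 arrays in turn.

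For the other genes a difference between the acidic amino acids was not detected, which does not show that they acted alike. The 95% interval of the difference had a median reach of 0.35 to either side and lay within -1 to 1 for 95% of genes. Among catabolite repression targets, DAL4 was at -4.29 on aspartate and -3.61 on glutamate (difference -0.67, interval -1.61 to 0.26), DUR3 at -2.48 and -2.20 (interval -1.17 to 0.63), and DIP5 at -1.41 and -1.82 (difference 0.41, interval -0.76 to 1.59). The 2 arrays of glutamate read -0.34 and -0.08 for GAP1, so that the aspartate arrays, at -0.08 and -0.71, overlapped with them. IDH1 was at 0.27 on aspartate and -0.51 on glutamate, a difference of 0.78 (interval 0.43 to 1.13) that missed the threshold (adjusted p = 0.0925). The medians of the 7 genes of 2-oxoglutarate supply were 0.11 on aspartate and -0.86 on glutamate.

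Asparagine is the amide of aspartate, and asparaginase turns it into aspartate and ammonium. It was also given at 10 mM. Of 3702 genes, 26 (0.702%) differed, 25 higher (0.675%) and 1 lower (0.027%) on aspartate. Against urea, with 858 of 4022 genes called on aspartate, 738 of 3627 genes (20.3%) passed on glutamate, 10.5% higher and 9.87% lower than urea, and 995 of 3953 (25.2%) passed on asparagine, 10.4% higher and 14.7% lower. Of 26 catabolite repression targets tested in this comparison, 11 were higher on aspartate and none lower, with a median difference of 0.93. GAP1 read -0.08 and -0.71 on the aspartate arrays, against -4.80 and -3.59 on the asparagine arrays, a difference of 3.80 (95% interval 2.69 to 4.90, adjusted p = 0.000171). DAL80 read -1.73 and -1.91 on aspartate, against -5.37 and -5.53 on asparagine, a difference of 3.63 (2.83 to 4.43, adjusted p = 5.67e-06). MEP2 read -0.89 and -1.28 on aspartate, against -3.71 and -4.42 on asparagine, a difference of 2.99 (2.24 to 3.73, adjusted p = 2.06e-05). These genes too were called by the difference, so the distance between their arrays is no separate support for it.

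PUT4 read -1.76 and -2.17 on aspartate, against -3.91 and -4.01 on asparagine (difference 1.99, adjusted p = 0.00955). DAL7 read -2.45 and -2.68 on aspartate, against -4.11 and -4.62 on asparagine, and CPS1 read -0.92 and -1.46 on aspartate, against -2.35 and -3.27 on asparagine. DAL1, DAL3, CAN1, ECM38, PRB1 and APE1 were also higher on aspartate, by 0.90 (APE1) to 1.36 (DAL1). DAL4 and DUR3 were not called, at differences of 0.52 (interval -0.42 to 1.46) and 0.14 (interval -0.76 to 1.04). Outside this group, PGK1 read 2.07 and 1.38 on aspartate, against 0.48 and 0.24 on asparagine (difference 1.37, adjusted p = 0.0401). LSC2, a subunit of succinyl-CoA ligase, read -0.33 and -0.05 on aspartate, against -0.92 and -1.02 on asparagine. RPL7B, a ribosomal protein gene and the 1 gene lower on aspartate, read -0.58 and -0.46 on aspartate, against 0.44 and 0.53 on asparagine (difference -1.01, adjusted p = 0.0235). DIC1 was not called (difference 0.31, interval -0.16 to 0.78).

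**Figure D5:**
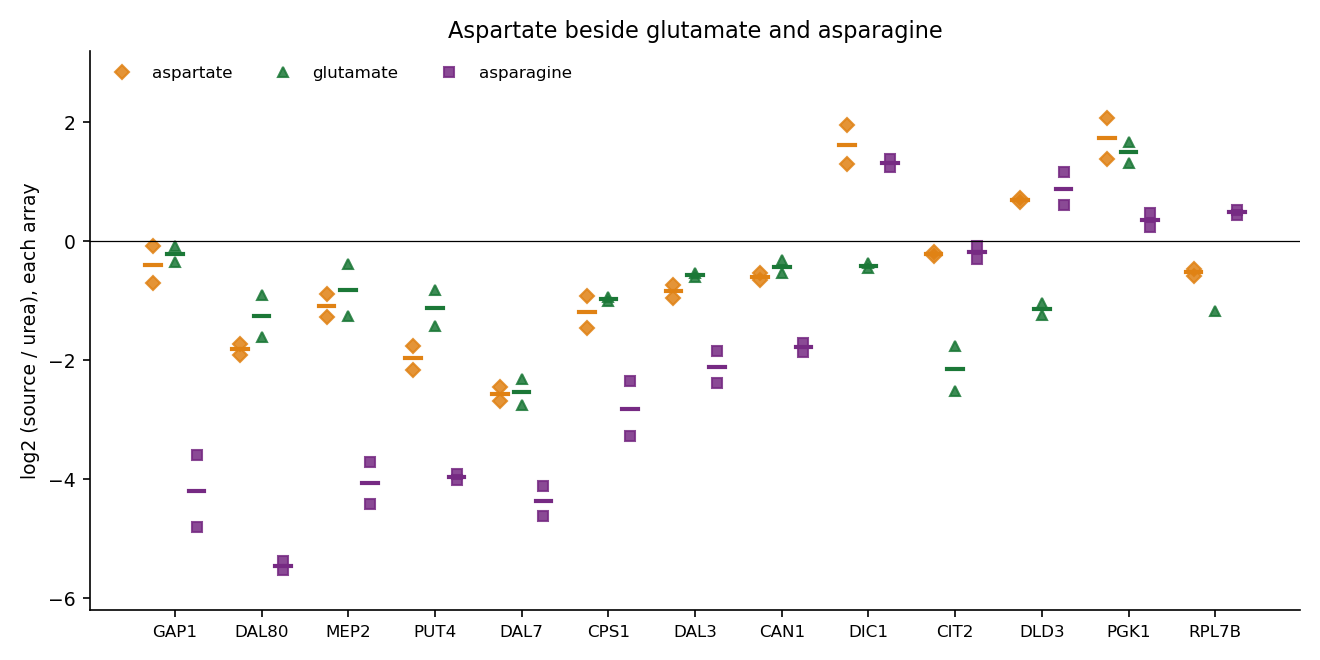
Log2 ratio of source over urea on each array (y axis) for 13 genes (x axis), with aspartate as orange diamonds, glutamate as green triangles and asparagine as purple squares. Short bars are means of 2 arrays, and RPL7B has a value on 1 glutamate array. GAP1, DAL80 and MEP2 are far lower on asparagine than on aspartate, and CIT2 and DLD3 are low on glutamate alone of the 3 sources.

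Of the 26 calls against asparagine, 4 (DAL80, GAP1, MEP2 and GPM2, the last a phosphoglycerate mutase homolog at a difference of 1.13, named after its value was seen) held without each of the 4 arrays in turn. Without aspartate array 1 there were 7 calls, without aspartate array 2 there were 9, without asparagine array 1 there were 24 and without asparagine array 2 there were 11. The PGK1, RPL7B, DAL7, ECM38, GAT1 and PRB1 calls ended without any 1 of the 4 arrays, with adjusted p from 0.0658 (ECM38 without asparagine array 1) to 0.5 (PRB1 without aspartate array 2). That of PUT4 ended without aspartate array 1 (1.76, adjusted p = 0.139) and asparagine array 2 (1.92), and CAN1, DAL1 and DAL3 lost theirs without the same arrays (0.98 to 1.33). CPS1 (1.45 to 1.66), APE1 (0.76 to 0.96) and LSC2 (0.58 to 0.78) lost theirs without either aspartate array or asparagine array 2. The 95% interval of the difference had a median reach of 0.35 to either side and lay within -1 to 1 for 93.8% of genes.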

How the data were processed

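The authors deposited, in 2 value tables, a log2 ratio of Cy5 over Cy3 per spot for each of 40 two-colour arrays, centred near 0 on each array by the authors, as the values show. The base is not named and is taken as 2. How the authors scanned, background-corrected, normalized and filtered spots is not given in the sources used. Ratios were turned to source over urea by the labelled dyes, and spots naming a single gene were averaged per gene. In 18 of the 20 sources the replicates have opposite dyes, so replicate number, dye and value table coincide; tryptophan and tyrosine have 1 dye order. A least-squares fit over all 40 arrays held 1 term for each source, signed by dye order, and a term for dye, moderated with limma 3.58.1 (R 4.3.3), for genes on at least 30 arrays and on both arrays of each source compared. P-values were adjusted by Benjamini-Hochberg over all genes tested, at a threshold of 0.05. The fit was tested on simulated data. Differences between replicates, which would show pairing by number, correlated between aspartate and the 17 other sources with both dye orders at 0.352 to 0.626, and at -0.107 (tryptophan) and -0.161 (tyrosine). Number, dye and value table cannot be told apart in this check.

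The members and gene lists were chosen with earlier results of these data known. Named genes were the 15 highest and 15 lowest against urea, up to 12 per direction against the other sources, up to 8 per direction against glutamate and asparagine, all members of 9 lists on nitrogen and aspartate, and up to 4 of the largest values of each other list. Alternatives covered the dye term, a replicate block, centring, the number of arrays required, medians over spots, weights per array, fits on the compared arrays alone, and leaving out each array.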

Additional observations from a re-analysis of the deposited data

Results flagged for a closer look

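The genes below had a response to aspartate that differed from the response to glutamate or asparagine by the test of the difference itself (limma, adjusted p under 0.05, aspartate minus the other source, 2 arrays each). The same urea RNA stands on both sides, so no agreement between the sources is drawn from them.

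Against glutamate, the differences were 2.03 ± 0.23 for DIC1 (SE, adjusted p = 1.1e-05), 1.92 ± 0.29 for CIT2 (adjusted p = 0.000784) and 1.83 ± 0.17 for DLD3 (adjusted p = 2.86e-07).

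Against asparagine, nitrogen catabolite repression genes made up the upper end. GAP1 differed by 3.80 ± 0.54, DAL80 by 3.63 ± 0.39, MEP2 by 2.99 ± 0.36 and PUT4 by 1.99 ± 0.39. DAL7 followed at 1.80, CPS1 at 1.62, DAL1 at 1.36, DAL3 at 1.27, CAN1 at 1.18, ECM38 at 1.13, PRB1 at 0.95, APE1 at 0.90 and GAT1 at 0.88. Genes of carbon metabolism were PGK1 (1.37), GPM2 (1.13) and LSC2, a succinyl-CoA ligase subunit (0.78). Others were YLR257W (1.26), the D-amino acid acetyltransferase gene HPA3 (1.19), the serine dehydratase gene SDL1 (1.17), the vacuolar mannosidase gene AMS1 (1.15), the sodium pump gene ENA2 (1.03), the kinase gene YGK3 (0.89), ORA1 (0.87), the polyubiquitin gene UBI4 (0.87) and IRC4 (0.83). RPL7B was the 1 gene lower on aspartate, at -1.01 ± 0.21. YLR257W, HPA3, AMS1, GPM2, ENA2, YGK3, ORA1, UBI4 and IRC4 were named after their values were seen.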

How the results depend on the processing

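The counts of genes called depended on how dye and spread were modelled. Against urea, 858 genes passed, 478 without a dye term, 351 of the genes on all 40 arrays and 1824 with array weights, and leaving out 1 aspartate array gave 233 to 351. Against the mean of the other sources, 22 passed, 2 without a dye term, 11 of the genes on at least 20 arrays and 455 with array weights, and leaving out 1 aspartate array gave 1 to 12. Against glutamate, 3 passed, 1 of the genes on all 40 arrays and 15 with array weights, and leaving out 1 array gave 3 to 9. Against asparagine, 26 passed, 10 without a dye term, 17 of the genes on all 40 arrays, 266 with array weights and 102 with the arrays compared alone, and leaving out 1 array gave 7 to 24. With the replicate block, which replaces dye in the model, there were 785 genes called against urea, 9 against the mean of the other sources, 3 against glutamate and 21 against asparagine. Replicate number and dye coincide for 18 sources, so this block is close to the dye term. Causes of these shifts were not tested, except that fewer genes are tested where all 40 arrays are required.

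Of 1969 values of named genes under the alternatives, 1685 kept their direction and their side of the threshold, 237 no longer passed (162 of them without 1 array), 41 newly passed and 6 changed sign. None of these 6 genes passed against urea with both arrays or in the setting where its sign changed. Leaving out aspartate array 1 or 2 gave 0.022 or -0.565 for FLO11, 0.005 or -0.193 for GLN3, -0.036 or 0.135 for STP1, -0.924 or 0.136 for GAP1, -0.318 or 0.003 for ADE1, and 0.063 or -0.022 for ICL2. With 2 arrays per source and no label on separate cultures, the spread behind each SE comes mostly from other sources. Base and normalization of the log ratios are unknown, and array 2 has no value for 36.7% of its spots.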

Other observations

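Some genes outside the lists also stood high or low on aspartate. They were chosen after their values were seen, and nothing is tested on them as groups. Among genes known to respond to zinc, ZAP1, the zinc-responsive activator, read 0.75 and 1.64 on the aspartate arrays (fitted 1.20, mean of the other sources 0.82), and ZRC1, a vacuolar zinc transporter, read 1.09 and 1.23 (fitted 1.16, others 0.96). ZPS1 read 0.65 and 1.74 (others 1.5), while ZRT1, the high-affinity zinc permease, read 0.36 and 0.54 and did not pass. Of glycerol synthesis, GPD1, glycerol phosphate dehydrogenase, read 1.23 and 1.51 (fitted 1.37, others 0.67), GPP1 read 1.10 and 1.05, and GPP2, which was on too few arrays to be tested, read 2.01 and 2.58. RNR2, a ribonucleotide reductase subunit, read -1.56 and -1.46 (fitted -1.51, others -1.02).

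Some genes had opposed or unequal arrays before correction for dye. URM1 read -2.75 on array 1 and 0.02 on array 2, and NTO1 read -0.32 and 1.93. Both are among the called genes, URM1 as a fall (fitted -1.37) and NTO1 as a rise (fitted 0.80). With dye in the fit, URM1 was below urea without array 1 (-0.945) and without array 2 (-1.79), while NTO1 was at 1.88 and -0.275. RFX1, which was not tested, read 0.00 on array 1 and 4.97 on array 2.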
